A study of Mus musculus with 6 samples.

Results

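The 6 NKX homeobox genes *Nkx6-1*, *Nkx6-2*, *Nkx6-3*, *Nkx2-2*, *Nkx2-3* and *Nkx2-5* were taken by gene symbol from the 23366 genes counted in every library. The rule used the symbols only, but the genes were chosen with earlier results of these data known. RNA was sequenced from small intestinal epithelium of mouse embryos at embryonic day 13.5 (E13.5), and each of the 6 libraries was made from 500 EpCAM-positive cells collected by fluorescence-activated cell sorting. The 3 mutant libraries carried the genotype Shh-cre-egfp:Tcf7l1 lox/lox, in which *Shh* drives Cre recombinase and *Tcf7l1*, a WNT pathway transcription factor, is removed from *Shh*-expressing epithelium. The 3 controls were labelled wild type, with no Cre allele given, so that effects of the Cre insertion in *Shh* and of *Tcf7l1* loss cannot be told apart. The submitters described the 3 libraries per group as biological replicates, without saying whether embryos were pooled.

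NKX factors bind DNA through a homeodomain and act during the regional patterning and cell fate choice of many embryonic tissues. The NKX6 proteins are mainly repressors that recruit corepressors of the Groucho family, and they are known from endocrine pancreas, gastric epithelium and neural tube. NKX2-2 is best known for its role in endocrine lineages of the pancreas and intestine, whereas NKX2-3 and NKX2-5 are known from the gut mesenchyme, the spleen and, for NKX2-5, the heart and pyloric sphincter.

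The homeobox of *Nkx6-2*, the NKX gene with the largest fitted change, is shown because it encodes the part of the protein that binds DNA. It was read from the mm9 mouse genome with the GENCODE vM1 coding sequence, 5′ to 3′ on the coding strand, and capitals mark the codons of the conserved WFQNRR residues of the recognition helix.
Nkx6-2: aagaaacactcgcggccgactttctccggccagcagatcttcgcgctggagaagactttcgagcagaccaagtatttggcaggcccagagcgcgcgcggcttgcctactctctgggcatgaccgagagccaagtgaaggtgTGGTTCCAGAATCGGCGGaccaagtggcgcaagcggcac
This stretch was 180 bases long and encoded 60 residues. Because short reads were counted for related genes, the annotated transcripts were compared over their whole length. The longest identical stretch between any pair of the 6 genes was 36 bases, in *Nkx2-2* and *Nkx2-3*, and the longest between NKX6 genes was 17 bases. Both were shorter than the 84-base reads.

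The genes lay on 6 chromosomes of mm9. *Nkx6-1* (ENSMUSG00000035187) was at chr5:102087158-102094245 on the minus strand. *Nkx6-2* (ENSMUSG00000041309) was at chr7:146765276-146768696 on the minus strand. *Nkx6-3* (ENSMUSG00000063672) was at chr8:24263743-24269420 on the plus strand. None of the 3 shared a chromosome. *Nkx2-2* (ENSMUSG00000027434) was at chr2:147003282-147019979 on the minus strand, *Nkx2-3* (ENSMUSG00000044220) at chr19:43686815-43690381 on the plus strand and *Nkx2-5* (ENSMUSG00000015579) at chr17:26975609-26978510 on the minus strand.

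The libraries held between 18216537 and 20397278 counted reads. The targeted gene *Tcf7l1* had 508, 508 and 383 reads in the wild type libraries and 40, 31 and 66 in the mutant libraries, and *Shh*, the locus of the Cre insertion, fell by 1.28 on the log2 scale (SE 0.17, adjusted p = 6.1e-05, edgeR's quasi-likelihood test). *Epcam*, the sorting marker, had between 51446 and 60011 reads in wild type and between 54735 and 60192 in mutant. *Xist* had no read in wild type and 229 to 424 in mutant, while the Y-linked gene *Ddx3y* had 1837 to 2254 reads in wild type and none in mutant. The sex of the embryos and the genotype therefore cannot be told apart in any comparison here.

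*Nkx6-2* and *Nkx6-3* were expressed in wild type epithelium and were almost lost in the mutant, *Nkx2-2* was low and uneven, *Nkx2-3* and *Nkx2-5* were near the limit of detection, and *Nkx6-1* was not detected. A gene was called at an adjusted p below 0.01 (Benjamini-Hochberg, over all tested genes), a log2 fold change of 0.5 or more in either direction and a normalised read count that averaged 50 or more. Of the 6 genes, 5 had at least 1 read and 2 passed the filter on low counts. Both tested genes, *Nkx6-2* and *Nkx6-3*, were called lower by edgeR and also by DESeq2, and 0 of the 6 were called higher by either tool (0 at an unadjusted p below 0.05). Over all 12501 tested genes, 5.83% were called lower and 2.78% called higher. An unadjusted p below 0.05, in either direction, was found for 5033 of them (edgeR's quasi-likelihood test). RNA lost from each cell and a loss of the cells that hold it cannot be told apart in these bulk libraries.

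**Figure D1:**
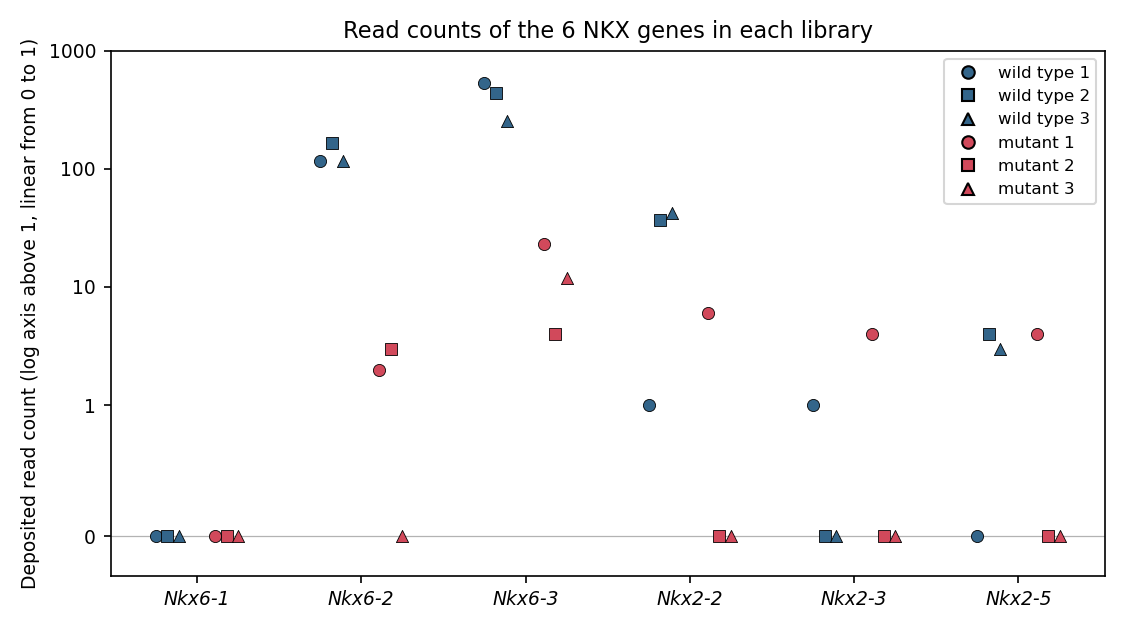
Deposited read counts of the 6 NKX genes, with 1 symbol per library (blue, wild type; red, mutant) and an axis that is logarithmic above 1 and linear from 0 to 1. *Nkx6-2* (116 to 164 against 0 to 3 reads) and *Nkx6-3* (256 to 533 against 4 to 23 reads) separated the groups, while the groups overlapped for *Nkx2-2*, *Nkx2-3* and *Nkx2-5*.

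*Nkx6-3*, known from the antral stomach where it takes part in the formation of gastrin-producing G cells, was the most abundant NKX gene. It had 533, 437 and 256 reads in wild type and 23, 4 and 12 in mutant. After normalisation to library size and composition, these were 499.8, 407 and 243 against 23.8, 4.26 and 13.3 reads. All mutant libraries lay below all wild type libraries, an order that, by any margin, held for 22.2% of tested genes. Wild type libraries averaged 384 ± 129.9 normalised reads and mutant libraries 13.8 ± 9.79 (SD, n = 3 each). *Nkx6-3* fell by 4.78 on the log2 scale (SE 0.39, adjusted p = 4.5e-07, edgeR's quasi-likelihood test), or 27.4-fold. Summed over libraries, the mutant level was 3.61% of wild type, with an exact 95% interval of 2.56 to 4.97% that covers counting error only. The exact permutation test of the normalised counts gave p = 0.1 (2-sided), the smallest that 3 against 3 libraries allow.

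*Nkx6-2*, a close relative known from the nervous system, pancreas and stomach, was less abundant but fell further in the fitted model. It had 117, 164 and 116 reads in wild type and 2, 3 and 0 in mutant. Again the groups did not overlap, and the wild type libraries were more even than for *Nkx6-3*. The normalised means were 124 ± 24.8 and 1.76 ± 1.62 reads (SD, n = 3 each). *Nkx6-2* fell by 6.03 on the log2 scale (SE 0.56, adjusted p = 1.6e-06, edgeR's quasi-likelihood test), or 65.4-fold. The summed mutant level was 1.43% of wild type (exact 95% interval 0.462 to 3.37%, counting error only) and rested on 5 reads in all. The exact permutation p was 0.1, again the smallest possible. Without wild type replicate 2, *Nkx6-2* kept its fold change (-5.85 on the log2 scale, adjusted p = 3.8e-05 by edgeR's quasi-likelihood test) but its mean normalised count was 44.4, under the minimum of 50, so that *Nkx6-3* was then the only NKX gene called. The log2 fold change of *Nkx6-2* was -6.71 without mutant replicate 2, and that of *Nkx6-3* was -5.44 without mutant replicate 1, shifts of over 1.5-fold.

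By fold change, *Nkx6-2* ranked 7th and *Nkx6-3* 9th from the largest fall among the 729 genes called lower. Whether the 2 genes fell by different amounts was examined as the log2 ratio of *Nkx6-2* to *Nkx6-3* within each library, with 0.5 added to each count. It was -2.18, -1.41 and -1.14 in wild type and -3.23, -0.36 and -4.64 in mutant. The mutant values lay on both sides of the wild type values and spread more widely (SD 2.18 against 0.54). The difference of the means was -1.17, and it was not distinguishable from 0 with this spread (exact permutation p = 0.40, 2-sided). The larger fitted fall of *Nkx6-2* was thus not shown to differ from that of *Nkx6-3*.

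**Figure D2:**
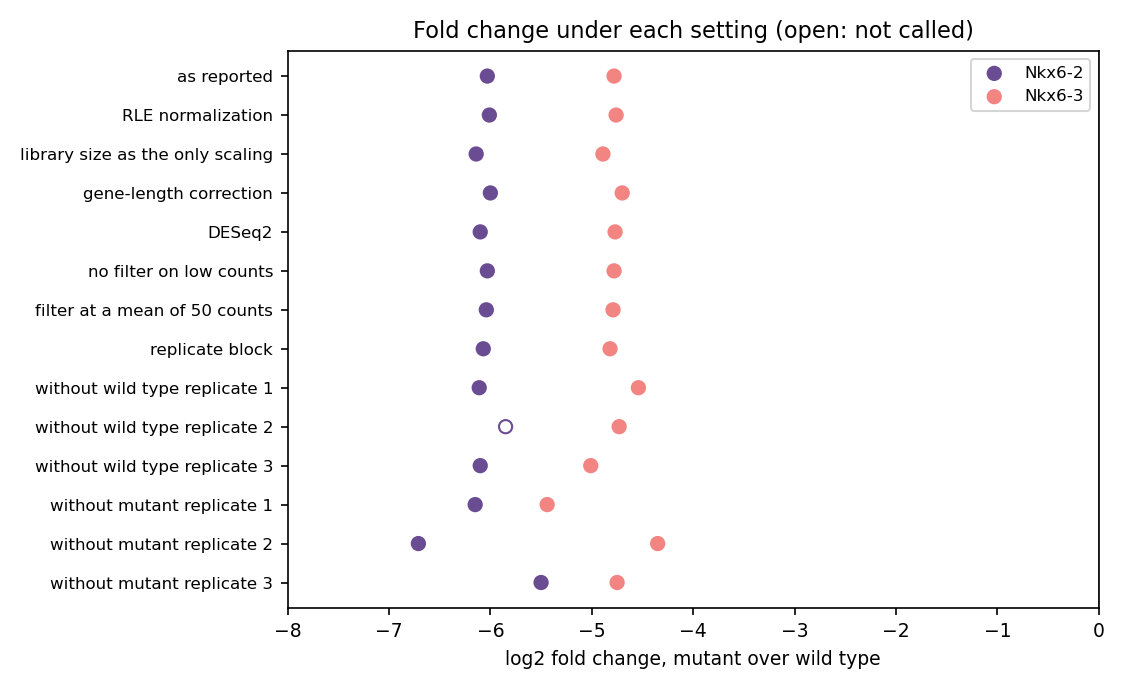
Log2 fold change (mutant over wild type) of *Nkx6-2* and *Nkx6-3* as reported and under 13 other settings, with an open symbol where the gene was not called. Values ran from -6.71 to -5.50 for *Nkx6-2* and from -5.44 to -4.35 for *Nkx6-3*, with 1 open symbol, *Nkx6-2* without wild type replicate 2.

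*Nkx6-1*, which marks beta cells and their progenitors in the pancreas, had 0 reads in all 6 libraries. With a limit of 3 reads over a group, this allows a level of up to 0.0143 RPKM (read counts scaled to exon length in kilobases and to library size) in wild type and 0.0162 in mutant. No difference between the groups can be stated for it at this depth. Other pancreatic genes were listed to show what the sorted cells contained. *Ptf1a*, *Prss1*, *Ins1* and *Ins2*, which define acinar and beta cells, also had 0 reads in every library. Of 13 pancreatic genes 7 were at 0 throughout, 3 were tested and 0 were called by edgeR or DESeq2 (1 higher at an unadjusted p below 0.05). All 13 together held 297 to 335 normalised reads in wild type, and the mutant libraries held 329 to 433.

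*Nkx2-2*, which acts in enteroendocrine and islet cells, was detected in all wild type libraries, but at very different levels. It had 1, 37 and 42 reads in wild type and 6, 0 and 0 in mutant. Wild type replicate 1 lay below mutant replicate 1, so the groups overlapped. The normalised means were 25.1 ± 21.1 and 2.07 ± 3.59 reads (SD, n = 3 each), and the summed mutant level was 8.52% of wild type (exact 95% interval 3.04 to 19.4%, counting error only). *Nkx2-2* did not pass the filter, and without the filter its log2 fold change was -3.50 (SE 1.08, adjusted p = 0.014, edgeR's quasi-likelihood test), which missed the threshold on p and the minimum count. Leaving out any library other than mutant replicate 1 gave log2 fold changes of -4.06 to -2.94. Without mutant replicate 1 no mutant read of *Nkx2-2* remained, and no fold is given. The adjusted p of that fit ranged from 9.3e-04 without wild type replicate 1 to 0.151 without wild type replicate 3. The exact permutation p was 0.2 (2-sided). An antisense gene, *Nkx2-2as*, overlaps 278 exon bases of *Nkx2-2* and had 0 reads in every library.

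*Nkx2-3*, a regulator of gut-associated and splenic mesenchyme, had 1, 0 and 0 reads in wild type and 4, 0 and 0 in mutant. The mutant to wild type ratio was 454% with an exact 95% interval from 45.0 to 22381%, so that no direction was detectable at this depth. *Nkx2-5*, a cardiac factor that is also expressed in the mesenchyme of the pyloric sphincter, had 0, 4 and 3 reads in wild type and 4, 0 and 0 in mutant. Its ratio was 64.9% (13.9 to 255%), again without a detectable direction. All mutant reads of *Nkx2-2*, *Nkx2-3* and *Nkx2-5* came from mutant replicate 1, and the other two mutant libraries had none.

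Markers of mesenchyme were examined beside these 2 genes. Of 23 mesenchymal genes in the tables, 11 were tested and 0 were called by edgeR or DESeq2 (3 lower and 3 higher at an unadjusted p below 0.05). Their summed normalised count was 1504 to 1851 for wild type libraries, and the mutant range of 1176 to 2072 enclosed it. Most of this sum was *Vim*, with means of 1252 normalised reads in wild type and 913 in mutant. By sign, 6 of the tested genes were lower and 5 higher in mutant, so the sum does not show an unchanged mesenchymal content. *Barx1*, a transcription factor of stomach mesenchyme, had 27, 70 and 19 reads in wild type and 4, 0 and 0 in mutant, with its mutant reads again in replicate 1. Its log2 fold change was -4.56 (SE 0.97, adjusted p = 0.00294, edgeR's quasi-likelihood test). Only its mean count, which was under 50, kept *Barx1* from being called. *Madcam1*, an adhesion molecule of mucosal vessels known to depend on *Nkx2-3* in the spleen, had 2 reads in wild type replicate 3 and 0 elsewhere. *Acta2*, *Actg2* and *Tagln*, genes of smooth muscle, were called higher when mutant replicate 1 was left out and not otherwise called with the filter in place.

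Levels were compared between genes per kilobase of annotated exon. In wild type, *Nkx6-3* reached 8.79 ± 2.98 RPKM and *Nkx6-2* 3.34 ± 0.666 RPKM, followed by *Nkx2-2* at 0.448 ± 0.376, *Nkx2-5* at 0.0737 ± 0.0655 and *Nkx2-3* at 0.00759 ± 0.0131 RPKM (SD, n = 3). By library, *Nkx6-3* ran at 11.5, 9.33 and 5.58 RPKM and *Nkx6-2* at 2.95, 4.11 and 2.96 RPKM. The ranges of *Nkx6-3*, *Nkx6-2* and *Nkx2-2* did not overlap, whereas *Nkx2-2*, *Nkx2-5* and *Nkx2-3* overlapped with their neighbours in this order. A length was available for 15969 genes with at least 1 read in any of the 6 libraries, some of which may have had none in wild type. By wild type level, 67.1% of them lay below *Nkx6-3*, 53.4% below *Nkx6-2* and 32.3% below *Nkx2-2*. In mutant the levels were 0.316 ± 0.224 RPKM for *Nkx6-3*, 0.0472 ± 0.0436 for *Nkx6-2* and 0.0369 ± 0.0639 for *Nkx2-2* (SD, n = 3). In mutant the range of *Nkx2-2* overlapped those of both NKX6 genes, and *Nkx6-3* (0.0976 to 0.546 RPKM) stayed just above *Nkx6-2* (0 to 0.0859 RPKM).

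**Figure D3:**
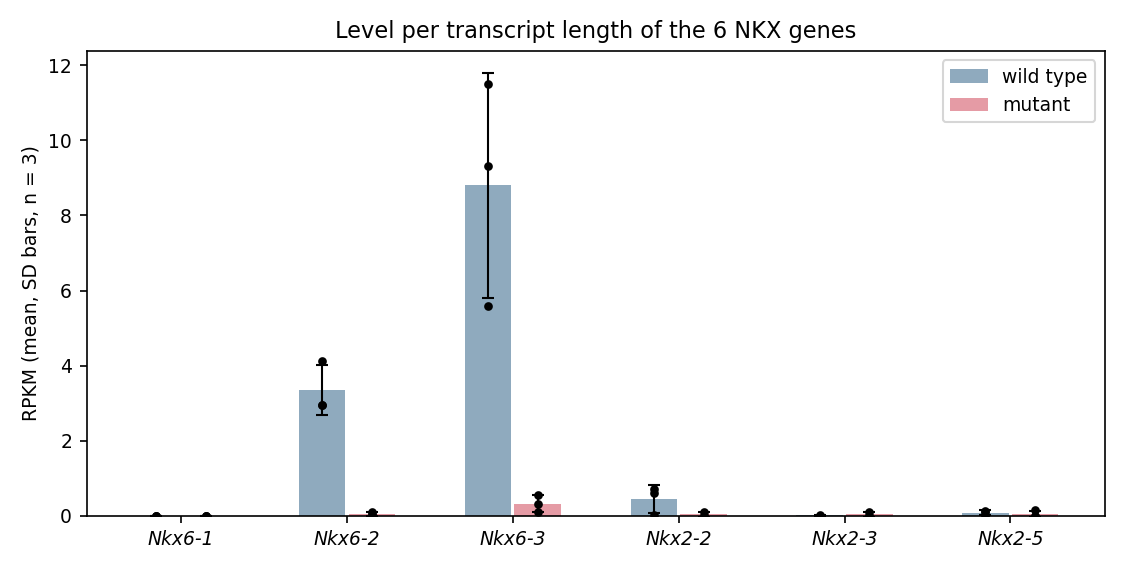
Level of the 6 NKX genes in RPKM on a linear axis that starts at 0, with bars for the mean, lines for the SD and points for the 3 libraries of each group. *Nkx6-3* (8.79 RPKM) and *Nkx6-2* (3.34 RPKM) stood above the other 4 genes in wild type, and in mutant no NKX gene had a mean above 0.316 RPKM.

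The remaining NKX family was checked by symbol. Of 8 further NKX symbols 7 were in the tables, and 6 of these had 0 reads in every library. The exception was *Nkx1-2*, with 8, 14 and 10 reads in wild type and 16, 10 and 1 in mutant. Its log2 fold change was -0.08 (SE 0.80, adjusted p = 0.957, edgeR's quasi-likelihood test), and the groups overlapped. In this epithelium *Nkx6-2* and *Nkx6-3* were the only NKX genes with more than 50 reads in any library.

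The genes of 4 related groups were followed beside the NKX genes, and their median log2 fold change is given beside the median of -0.04 over all tested genes. The lists were known to hold genes that differ in these libraries, so that their counts are a description. Of all 12501 tested genes, 5.83% were called lower, 2.78% were called higher and 5033 had an unadjusted p below 0.05 in either direction. Among 20 transcription factors of endocrine differentiation other than the NKX genes, 10 were tested, 3 were called lower and 0 higher by edgeR and by DESeq2 (6 lower and 0 higher at an unadjusted p below 0.05), with a median log2 fold change of -1.11. *Foxa2*, a forkhead factor of endoderm, had 319, 290 and 304 reads in wild type and 21, 53 and 30 in mutant (log2 fold change -2.94, SE 0.29, adjusted p = 3.0e-06, edgeR). *Pdx1*, needed for pancreas and duodenum, had 230, 236 and 201 against 45, 40 and 52 reads, and *Rfx6*, which acts in endocrine progenitors, had 762, 571 and 576 against 151, 200 and 210. In each of these 3 genes all mutant libraries lay below all wild type libraries, as in 22.2% of tested genes. The log2 fold changes of -2.94 for *Foxa2*, -2.09 for *Pdx1* and -1.58 for *Rfx6* were smaller in size than those of *Nkx6-2* and *Nkx6-3*. A test between these genes was not made.

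Some early endocrine factors were, like *Nkx2-2*, nearly absent from wild type replicate 1. *Neurog3*, the factor that starts endocrine differentiation, had 3, 179 and 90 reads in wild type and 0, 6 and 2 in mutant. *Pax4* had 0, 107 and 82 reads in wild type and 0 in mutant, which is at least 55.5-fold lower against a limit of 3 reads over the mutant group. For *Nkx2-2*, *Neurog3* and *Pax4*, wild type replicate 1 was at 0 to 3 reads and the other two wild type libraries were between 37 and 179. *Neurod1*, a later factor of the same lineage, was present in all 3 wild type libraries with 106, 121 and 60 reads and had 0 in mutant, at least 84.2-fold lower against the same limit. Its mean count over all libraries was under 50, which alone kept it from being called. It was called with no minimum count or with any 1 mutant library left out. Leaving out single libraries moved the bound for *Neurod1* to between 55.3 and 99.4 and that for *Pax4* to between 36.2 and 83.3. The list held 5 called genes without wild type replicate 1 (with *Foxa1* and *Neurog3*) and 5 without mutant replicate 2 (with *Neurod1* and *Neurog3*). Mutant replicate 1, the mutant library with *Nkx2-2* reads, had 0 reads of *Neurog3*, *Pax4* and *Neurod1*.

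**Figure D4:**
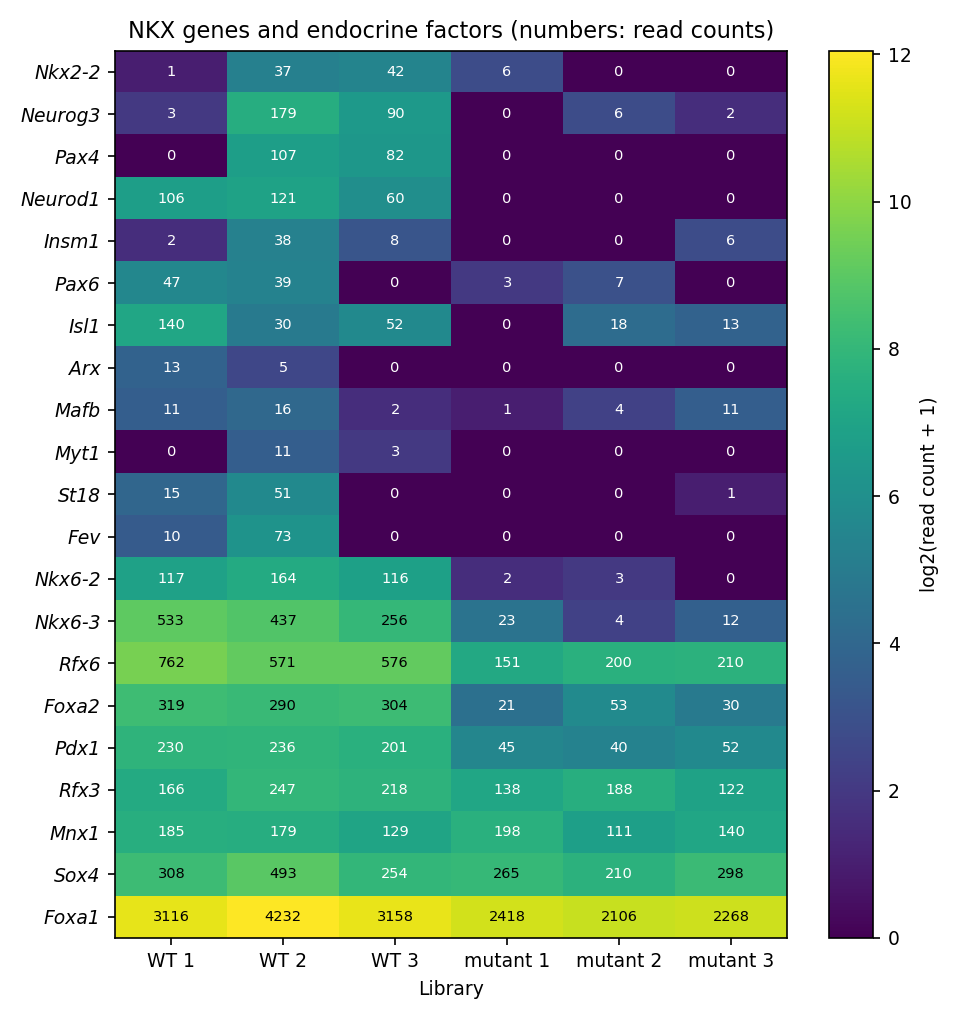
Read counts (numbers in the cells) of *Nkx2-2*, *Nkx6-2*, *Nkx6-3* and the 18 endocrine transcription factors with at least 1 read, in each library, coloured by log2(count + 1). *Nkx2-2*, *Neurog3* and *Pax4* were at 0 to 3 reads in wild type replicate 1 (WT 1), whereas *Nkx6-2* (116 to 164 reads) and *Nkx6-3* (256 to 533 reads) were present in all 3 wild type libraries.

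Of 17 endocrine hormones, granule proteins and processing enzymes, 15 were too low to be tested. The 2 tested genes had a median log2 fold change of -0.31. The hormone *Sct* (secretin) had 256, 246 and 241 reads in wild type and 276, 287 and 198 in mutant, with overlapping groups and a log2 fold change of 0.21 (SE 0.18, adjusted p = 0.404, edgeR). The other tested gene, *Cpe* (a carboxypeptidase that processes prohormones), was called lower, at -0.84 on the log2 scale (SE 0.16, adjusted p = 0.00143, edgeR), a call that was lost without wild type replicate 1. *Chgb*, a granule protein, had 432, 1020 and 4 reads in wild type and 0 in mutant, and was called lower by DESeq2, under either other filter on low counts, and when wild type replicate 3 or any 1 mutant library was left out. *Gast*, the hormone of the G cells for which *Nkx6-3* is known, had 3, 0 and 0 reads in wild type and 0 in mutant. *Nkx6-3*, at 256 to 533 reads, was thus present in wild type libraries with almost no *Gast*.

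Gastric epithelial genes were listed because *Nkx6-3* and *Nkx6-2* are known from the stomach. Of 18 genes 10 were tested, 4 were called lower and 0 higher by edgeR and by DESeq2 (6 lower and 0 higher at an unadjusted p below 0.05), with a median log2 fold change of -0.91. *Ctse*, a stomach protease, had 816, 873 and 1079 reads in wild type and 85, 132 and 28 in mutant, a log2 fold change of -3.32 (SE 0.31, adjusted p = 1.8e-06, edgeR). *Cldn18*, a tight junction protein of stomach epithelium, had 319, 361 and 276 against 30, 34 and 55 reads and fell by 2.81 on the log2 scale. *Pitx1* and *Gata5*, transcription factors of the foregut and anterior gut, fell by 0.70 and 0.59, and the call of *Gata5* was lost without wild type replicate 1, wild type replicate 2 or mutant replicate 3 and under a correction for gene length. *Sox2*, the defining factor of stomach and oesophagus, had 12, 7 and 11 reads in wild type and 0 in mutant. The 18 genes together held 4328 to 4430.0 normalised reads in wild type libraries. In mutant libraries they held 2213 to 2467, so that their sum was lower in the same libraries as *Nkx6-2* and *Nkx6-3*. Most of this sum was *Pitx1*, *Ctse* and *Gata5*, with means of 1516, 868 and 831 normalised reads in wild type and 931, 86.5 and 552 in mutant. Among the tested genes not called, *Gkn2* was at -1.84, *Tff2* at -1.74, *Anxa10* at -1.12 and *Pgc* at -0.51 on the log2 scale. *Foxq1*, at -0.03, and *Gkn1*, at 0.0, hardly differed. How much of the NKX6 difference goes with cells of a more anterior position was not tested.

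The genes listed for the Groucho family, from which NKX6 factors recruit corepressors, were all measured. Which of them act with NKX6 factors was not tested. The 6 were tested and 0 were called in either direction by edgeR or DESeq2 (1 lower at an unadjusted p below 0.05), with a median log2 fold change of -0.11. *Tle3* had the lowest value at -0.35 (SE 0.18, adjusted p = 0.148, edgeR), followed by *Tle4* at -0.32 (SE 0.11, adjusted p = 0.0375, edgeR). *Tle1* was at 0.10 and *Aes*, the most abundant of them, at 0.10. Transcripts of all 6 Groucho family genes were thus measured in the mutant libraries in which those of *Nkx6-2* and *Nkx6-3* were nearly absent.

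**Figure D5:**
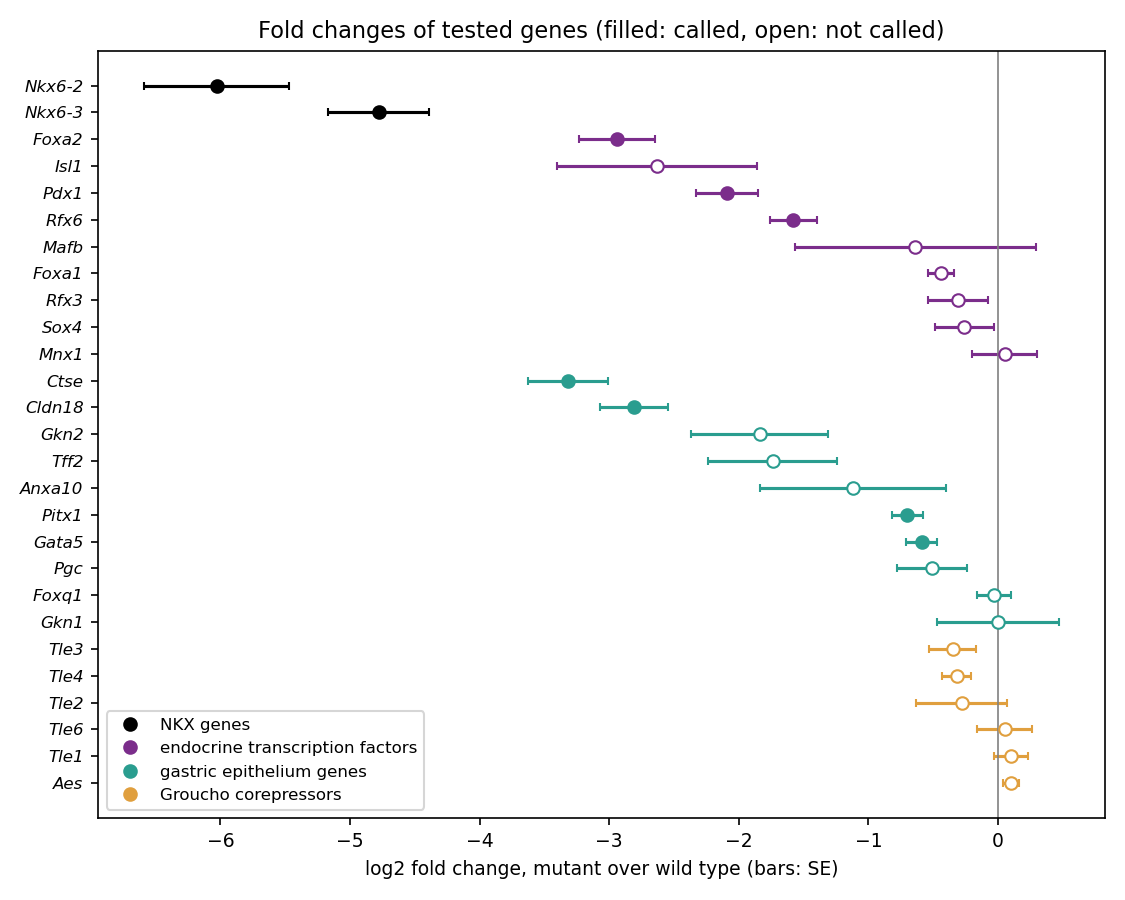
Log2 fold change (mutant over wild type, bars for the SE) of the tested NKX genes, endocrine transcription factors, gastric genes and Groucho family genes, filled where called. *Neurod1* is left out because it had no read in mutant. *Nkx6-2* (-6.03) and *Nkx6-3* (-4.78) lie left of every other gene plotted, and the Groucho family genes lie between -0.35 and 0.10.

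Markers of other cells were compared because a difference in the makeup of the sorted cells would move with the groups. Among all 12501 tested genes, 5.83% were called lower, 2.78% were called higher and 5033 had an unadjusted p below 0.05 in either direction. Of 13 epithelial genes 5 were called lower (*Cdh1*, *Krt18*, *Cdx2*, *Shh* and *Ihh*) and 0 higher by edgeR and by DESeq2 (8 lower and 2 higher at an unadjusted p below 0.05). Their sums were 169504 to 179192 normalised reads for wild type and 163087 to 167172 for mutant libraries. The count was 3 without wild type replicate 2 or mutant replicate 2. Genes of the enteric neural crest summed to 272 to 372 and 267 to 440.3 reads, with 6 tested and 0 called by edgeR or DESeq2 (1 higher at an unadjusted p below 0.05). Endothelial genes summed to 13.1 to 28.9 and 14.4 to 37.3 reads, with 1 tested, 0 called by edgeR or DESeq2 (0 at an unadjusted p below 0.05) and *Cdh5* and *Kdr* at 0. Blood genes summed to 20 to 53.1 and 7.45 to 14.4 reads, with 1 tested, 0 called by edgeR or DESeq2 (1 lower at an unadjusted p below 0.05) and *Ptprc* at 0. Their part in the NKX6 difference was not tested.

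The genes that varied most like each NKX6 gene over the 6 libraries were found from log2 counts scaled to library size and centred on each gene. For *Nkx6-2* they were *Crhbp*, *Neurod1* and *Serpina1a*, with root mean square differences of 0.46, 0.50 and 0.59. For *Nkx6-3* they were *Lrrc3b* at 0.55, *Crhbp* at 0.66 and *Serpina1a* at 0.67. The NKX6 genes were 0.92 apart from each other, rank 24 from *Nkx6-2* and rank 20 from *Nkx6-3*. *Crhbp*, which encodes a binding protein of corticotropin-releasing hormone, had 54, 69 and 49 reads in wild type and 0 in mutant, at least 50.5-fold lower against a limit of 3 reads over the mutant group. The bound for *Crhbp* was 33.1 to 53.8 when single libraries were left out. *Serpina1a*, a protease inhibitor with near-identical copies, had 585, 591 and 679 against 42, 23 and 17 reads. It fell by 4.32 on the log2 scale (SE 0.25, adjusted p = 5.8e-09, edgeR). The study counted only reads that mapped uniquely, so that reads shared by such copies were left out. *Lrrc3b*, a leucine-rich repeat gene, had 388, 399 and 461 against 21, 9 and 22 reads and fell by 4.39 (SE 0.28, adjusted p = 2.0e-08, edgeR). As these lists were ranked over the same 6 libraries, likeness includes the difference between the groups.

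The genes next to each NKX gene were examined to see whether the differences extended along the chromosome. Of 13 neighbours 1 was called lower, 1 higher, 8 were tested and not called, and 3 were not tested. Over all 12501 tested genes, 5.83% were called lower and 2.78% higher, and so few neighbours cannot be told apart from these shares. *Ank1*, which encodes an ankyrin of the membrane skeleton, ends 2774 bases before *Nkx6-3* on the same strand and had 55, 32 and 31 reads in wild type and 0 in mutant. This was at least 34.6-fold lower against a limit of 3 reads over the mutant group (22.7 to 38.1 when single libraries were left out), and *Ank1* was not called because its mean count was under 50. *Agpat6*, 13998 bases beyond *Nkx6-3*, had a log2 fold change of -0.23 (SE 0.08, adjusted p = 0.0474, edgeR) and was not called. The gene upstream of *Nkx6-3* thus differed along with it, while the next gene on the other side differed little. Whether the *Ank1* reads are separate transcripts or continue into *Nkx6-3* was not tested.

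*Inpp5a*, an inositol phosphatase, lies on the opposite strand to *Nkx6-2* and shares 245 exon bases with it at their 3′ ends. It had 667 ± 66.2 normalised reads in wild type and 672 ± 77.6 in mutant (SD, n = 3 each), a log2 fold change of 0.01 (SE 0.13, adjusted p = 0.963, edgeR). Reads in the shared bases cannot be told apart where counting does not use strand. The mutant libraries, with 563 to 728 reads of *Inpp5a*, had 0 to 3 reads of *Nkx6-2*. *Pwwp2b*, 312124 bases from *Nkx6-2*, fell by 0.70 on the log2 scale (SE 0.16, adjusted p = 0.00493, edgeR), but was called under only 9 of 14 settings and not without wild type replicate 1 or 2 or mutant replicate 1 or 2. *Got1*, 87720 bases from *Nkx2-3*, rose by 0.57 (SE 0.12, adjusted p = 0.00215, edgeR), and was called under 11 of 14 settings, the exceptions being library size as the only scaling and the fits without wild type replicate 1 or mutant replicate 1. The genes beside *Nkx2-2*, *Nkx2-4* and *Pax1*, had 0 reads in every library.

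Promoter sequence from RefSeq (GRCm38.p6, 250 bases before to 50 after the annotated start) was held for 5 of the 6 genes, all but *Nkx6-3*. The TCF/LEF letters CTTTGAT or CTTTGAA, on either strand, were in 0 of these 5 promoters and in 8.65% of 32851 promoters. The NKX6-type letters TTAATTA were in 0 of the 5 and in 3.07% of all promoters. In the 250 bases before the start, G and C made up 65.2% of the *Nkx6-2* sequence and also 65.2% of that of *Nkx6-1*. The share was 60% for *Nkx2-3*, 56.4% for *Nkx2-2* and 49.2% for *Nkx2-5*, against a median of 52.4% over all promoters. The TCF/LEF and NKX6-type letters are absent from these windows only, and no statement about binding follows.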

How the data were processed

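Read counts per gene were deposited by the authors as 1 table per library, with no normalisation. Per the labels and the study's methods, polyadenylated RNA from 500 sorted cells was amplified for 15 PCR cycles and sequenced as 84-base reads. The submitters' processing notes name STAR 2.5.2b, featureCounts 1.5.1 and mm9. The strand setting of the counting was not given in the sources used here. No molecular identifiers were used, so that intervals and limits cover counting error only.

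The 3 mutant and 3 wild type libraries were compared with edgeR 4.0.16 in R 4.3.3 (quasi-likelihood test, TMM normalisation, expression filter, Benjamini-Hochberg over 12501 tested genes). The minimum mean normalised count of 50 stood in for the RPKM minimum of the study. Fits were tested on simulated data. Genes that failed the filter were read from a fit without it and from exact intervals of summed counts. A gene with 0 reads in a group was given a bound from 3 reads over the group. RPKM used the union of GENCODE vM1 exons, which may differ from the authors' gene models. The *Nkx6-2* homeobox was found from the WFQNRR residues of its translated coding sequence, and other homeobox sequences are not reported here.

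The NKX genes and all gene lists were chosen with earlier results of these data known. Named were the 6 NKX genes, other NKX genes, called list members and defining markers, *Tcf7l1* and *Shh*, the nearest genes on each side, and the 3 genes most like each tested NKX gene. Other list members given with values (*Neurog3*, *Pax4*, *Chgb*, *Sct*, *Gast*, *Barx1*, *Madcam1*, *Acta2*, *Actg2*, *Tagln* and the Groucho family) were chosen after their values were seen. So were *Gkn1*, *Gkn2*, *Tff2*, *Anxa10*, *Pgc*, *Foxq1*, *Nr5a2* and *Cela1*. Alternatives were other normalisations, DESeq2 1.42.0, other filters and thresholds, a correction for gene length, a block for replicate number, and fits with 1 library fewer.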

Additional observations from a re-analysis of the deposited data

How the results depend on the processing

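*Nkx6-3* kept its direction and its call under all 13 other fits and *Nkx6-2* under 12. Without wild type replicate 2, *Nkx6-2* was at -5.85 on the log2 scale and was not called, as its mean count was too low, and 1 NKX gene was then called lower. Leaving out single libraries gave log2 fold changes of -6.71 to -5.50 for *Nkx6-2*, of -5.44 to -4.35 for *Nkx6-3*, and NKX6 log2 ratio differences of -2.36 to -0.22. *Nkx2-2*, which failed the filter, ran from -4.06 to -2.94 over single libraries left out, unless mutant replicate 1, which held all of its mutant reads, was the one removed. *Nkx2-3*, not tested because of low counts, changed direction without mutant replicate 1, from 1.80 to -1.82 on the log2 scale, and ran from -1.82 to 3.59 over single libraries left out. At -1.82 the mutant group had 0 reads, and at 3.59, without wild type replicate 1, the wild type group had 0 reads. Neither value is thus a measured fold or direction.

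Counts over all genes moved more. Genes called lower numbered 729, and 417 with a gene-length correction, 284 when a log2 fold change of 1 was required, and 405 to 867 without single libraries (405 without wild type replicate 1, 406 without wild type replicate 2, 463 without mutant replicate 2). Genes called higher numbered 348, and 200 when scaled by library size alone, 728 with the length correction, 85 at the larger fold change, and 260 to 516 without single libraries. The share of calls that were higher was 32.3%, 17.3% with library size alone and 63.6% with the length correction, and these scalings moved the median log2 fold change by -0.11 and 0.18. The cause was not tested.

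Same-numbered libraries deviated from their group means with correlations of 0.01, -0.045 and -0.018, so no sign of pairing by replicate number was seen. Such correlations cannot exclude that libraries were handled together. With a replicate block, *Nkx6-2* was at -6.07 and *Nkx6-3* at -4.82, both called, with 691 genes lower and 339 higher. Few or no reads were counted for *Nkx2-2*, *Nkx2-3*, *Nkx2-5* and *Nkx6-1*, which limits what can be stated for them. Whether depth or low expression accounts for this was not tested.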
